A study of Mus musculus with 12 samples.

Results

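The potassium channel peaks described here are the m6A peaks of Kcnj16, Kcnk2, Kcnk3, Kcnma1, Kcnmb4 and Kcnq3, chosen by gene name from a list of 529 unique peaks that the authors had called different between young and aged mouse hippocampus. Each of the 6 genes has 1 listed peak, so that 6 of 529 peaks are described. Another 2 listed peaks, of 1 further gene whose name starts with Kcn, are outside the set and are not reported here. Peaks were measured by MeRIP-seq: poly(A) RNA was broken into short pieces, pieces that carry N6-methyladenosine (m6A) were enriched by immunoprecipitation, and the result was sequenced. The RNA came from individual hippocampi of male C57BL/6 mice, young (3 months old) or aged (20 months old), with 3 immunoprecipitate (IP) and 3 input libraries per age. No mutation or treatment separates the groups, and the animals of each age had been picked after a quantitative PCR check.

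Potassium channels let potassium ions leave or enter a cell down their gradient and thereby set the resting potential, shape and end action potentials, and clear potassium released by active neurons. N6-methyladenosine is the commonest internal modification of messenger RNA. It is written by the Mettl3-Mettl14 methyltransferase complex at adenosines in a short consensus sequence, and proteins that bind it act on splicing, stability and translation. Antibodies against m6A also bind m6Am, a related modified adenosine beside the cap at the start of a transcript.

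The 6 genes fall into 4 channel classes. Kcnj16 encodes Kir5.1, an inward rectifier subunit that joins Kir4.1 in glia and in kidney and makes the joint channel sensitive to pH. Kcnk2 and Kcnk3 encode TREK-1 and TASK-1, background channels that carry a resting leak of potassium. TREK-1 responds to stretch, heat and lipids, and TASK-1 closes in acid. Kcnma1 encodes the pore-forming subunit of the BK channel, which opens on depolarisation and on a rise in calcium, and Kcnmb4 encodes its auxiliary beta subunit of neurons. Kcnq3 encodes a subunit of the channels of the M-current, which holds back repetitive firing.

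Only IP reads at the listed peaks are in the table that was analysed. The input libraries are not analysed here, and a difference at a peak can therefore not be told apart from a difference in the level of the transcript or in the number of cells that express it. Listed peaks held 537133, 701150 and 465628 reads in young libraries 1, 2 and 3, and 697362, 322474 and 500646 in the aged ones. As a share of the library sizes given next, young library 2 lay within the aged range, and young libraries 1 and 3 lay below it. Levels at single peaks were not corrected for this. Library sizes, recovered from the table, were 14914095, 12814321 and 16084217 reads for the young animals and 12534186, 6158014 and 8736248 for the aged ones, and levels are given as counts per 1000000 reads of these sizes (CPM). Among 20 choroid plexus genes only Cldn2 had a listed peak, and its CPM were 29.0, 7.10 and 45.1 in the young libraries, always in the order 1, 2, 3, and 5.27, 3.73 and 18.5 in the aged ones.

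All 6 peaks lie near the start of the coding sequence or upstream of it. The peak of Kcnq3 is the one wholly inside coding sequence. It covers 202 bases of exon 1 (mm10 chr15:66286015-66286217, minus strand) and begins 7 bases after the first base of the start codon. It is shown because it is a coding peak with 3 matches to DRACH, the consensus of m6A sites (A, G or T, then A or G, then A and C, then A, C or T), which are in capitals, as they are in all sequences below. Sequences are from the gene strand of GRCm38, the assembly of mm10.
Kcnq3 coding: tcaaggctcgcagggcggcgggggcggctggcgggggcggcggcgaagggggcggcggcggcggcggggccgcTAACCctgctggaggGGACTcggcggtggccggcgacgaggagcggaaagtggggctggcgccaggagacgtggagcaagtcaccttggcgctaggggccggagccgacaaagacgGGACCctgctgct

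The peak of Kcnj16 (chr11:111024352-111024552, plus strand) spans the start codon in the last exon of each annotated transcript that it touches. Of its 200 bases, 56 are intron, 105 are untranslated exon and 39 are coding. It holds 6 DRACH matches, all upstream of the start codon, and 2 of them contain GGAC. The adenosine of the GGACT match lies at -33, counted from the first base of the start codon. Its GC content is 35.0%, and the coding part shows the difference in composition from Kcnq3.
Kcnj16 GGACT site: aactgacatcGGACTcctctgaatg
Kcnj16 coding: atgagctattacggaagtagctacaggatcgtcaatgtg

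The other 4 peaks lie in the first exon of at least 1 annotated transcript. That of Kcnk3 (chr5:30588173-30588373, plus strand) spans the start codon, with 143 untranslated and 57 coding bases, and its only DRACH match is a GGACC whose adenosine lies at -14. That of Kcnma1 (chr14:24004635-24004854, minus strand) is 219 bases of 5'UTR centred at -620, with 2 AGACC matches. That of Kcnk2 (chr1:189343629-189343857, minus strand) lies in the 5'UTR, centred at -442 along the genome, and its 2 matches are AGACA. The peak of Kcnmb4 (chr10:116473531-116473772, minus strand) covers 241 bases of 5'UTR, ends at -11, and holds no DRACH match.
Kcnk3 site: gggccggcgaGGACCcgggagggac
Kcnma1 site 1: agggtcacagAGACCcggcccgaag
Kcnma1 site 2: gaggcagggcAGACCgccgcaacca
Kcnk2 site 1: cgcctcacaaAGACAtgcggagagg
Kcnk2 site 2: cgcggcacaaAGACAcccgggtgct

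The first Kcnk2 site is in exon 1 of a transcript whose 5'UTR is spliced. The second is in an intron of that transcript and in exon 1 of another. DRACH was searched on the gene strand, where matches may overlap, and 5 of the 6 peaks held it, beside 450 of all 529 listed peaks (85.1%). GGAC was in 4 of the 6 and in 363 of all 529 (68.6%), which are shares close to those of the set. A match is a sequence and not a measured site.

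**Figure D1:**
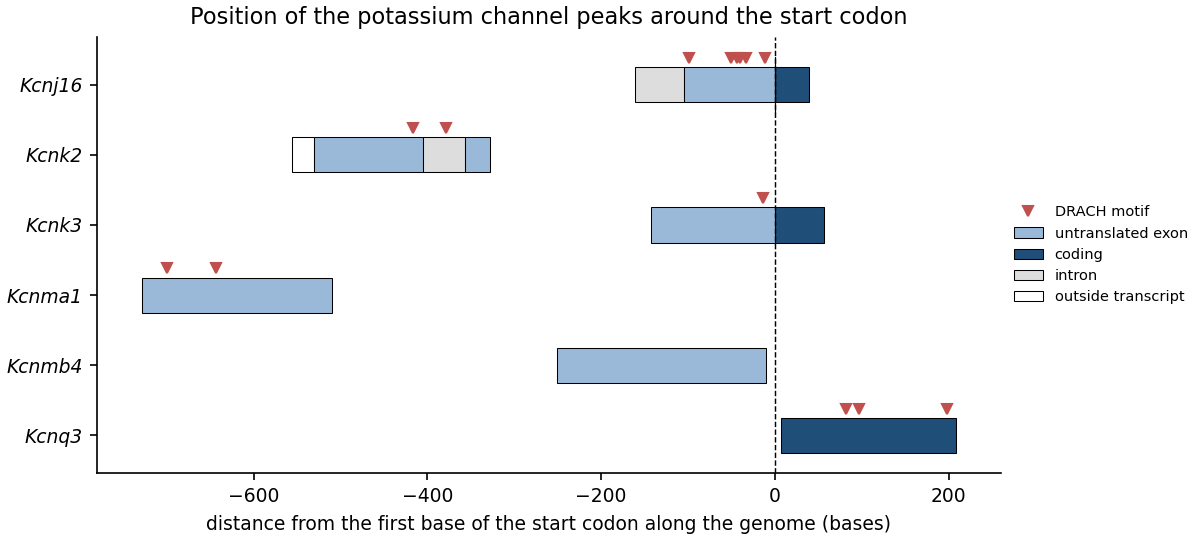
Position of each potassium channel peak (bars) relative to the first base of the start codon, in bases along the genome with introns included, coloured by annotation on 1 transcript per gene; triangles mark the adenosine of each DRACH match. Kcnj16 and Kcnk3 span the start codon, Kcnq3 lies after it, and Kcnk2, Kcnma1 and Kcnmb4 lie before it.

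Composition divides the set into Kcnj16 and the rest. The GC content of Kcnk2, Kcnma1, Kcnk3, Kcnq3 and Kcnmb4 was 73.2%, 74.0%, 76.0%, 76.2% and 83.4%, against a median of 69.8% over all listed peaks and of 76.2% over the 268 in a first exon. These 5 are all in a first exon, as are 50.7% of all listed peaks. Opposite-strand exons overlap 4 of the 6 peaks and 33 of all 529 (6.24%): A430027H14Rik covers all 228 bases of the Kcnk2 peak, 4930519K11Rik all 219 of the Kcnma1 peak, Kcnmb4os2 all 241 of the Kcnmb4 peak, and Gm9899 3 bases of the Kcnk3 peak. The library kit keeps strand, but whether the reads were counted by strand is not given in the sources used here, so that reads of these genes and of their antisense partners cannot be told apart.

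The age comparison asks whether IP reads at these peaks differ between 3 and 20 months. The mean was higher in aged libraries at Kcnk2, Kcnk3, Kcnma1, Kcnmb4 and Kcnq3 and lower at Kcnj16, by 1.49-fold to 1.87-fold, but Kcnk2 and Kcnq3 were just below 0 on the log2 scale with TMM or DESeq2 size factors. At 5 of the 6 peaks all aged libraries lay above all young ones with the recovered sizes, and at 0 of the 6 with TMM, DESeq2 size factors or column totals. Of all 529 peaks, 22 were so separated with TMM, 24 with DESeq2 size factors and 54 with column totals. The authors describe calling peaks with edgeR's likelihood ratio test and an added option to remove unwanted variation. That option was not applied here, so the calls below are not a repeat of theirs. None of the 6 differences passed edgeR's quasi-likelihood test at an adjusted p of 0.05 over the 529 peaks (0 of 6, beside 6 of 529 or 1.13%). The adjusted p of this test was 0.167 for each. The listed peaks had been selected for a difference on these same libraries, so these p-values are not independent evidence, and the separation of the libraries is read beside that of the whole list, in which all aged libraries were above all young at 170 of 529 peaks (32.1%) and all below at 79 (14.9%).

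Among the background channels, Kcnk2 had 278, 365 and 269 reads in the young libraries, or 18.6, 28.5 and 16.7 CPM. The aged libraries had 422, 201 and 254 reads, or 33.7, 32.6 and 29.1 CPM. The lowest aged library stood just above young library 2, while young libraries 1 and 3 were well below both. The means were 21.3 ± 6.31 CPM at 3 months and 31.8 ± 2.41 CPM at 20 months (SD, n = 3 each), and the log2 fold change was 0.58 (SE 0.32). By size the Kcnk2 difference was at rank 280 of the 417 higher peaks.

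Kcnk3, the acid-sensitive channel of this class, had 221, 277 and 257 reads in the young libraries, or 14.8, 21.6 and 16.0 CPM. It had 312, 218 and 295 reads in the aged ones, or 24.9, 35.4 and 33.8 CPM. The ages did not overlap with the recovered sizes, and aged library 1 was the one closest to the young range. The means were 17.5 ± 3.64 and 31.4 ± 5.66 CPM (SD, n = 3), and the log2 fold change of 0.84 (SE 0.31) had the smallest unadjusted p of the 6 (0.0166, edgeR quasi-likelihood; adjusted p 0.167). It ranked 53 of 417 by size.

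Within a library, the ratio of Kcnk2 to Kcnk3 reads does not depend on the library size. On the log2 scale it was 0.33, 0.40 and 0.07 in the young libraries and 0.44, -0.12 and -0.22 in the aged ones. The ages overlapped, with means of 0.26 ± 0.18 and 0.03 ± 0.35 (SD, n = 3).

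In the BK channel, the pore-forming subunit Kcnma1 had 601, 557 and 468 reads in the young libraries, or 40.3, 43.5 and 29.1 CPM. In the aged libraries it had 809, 340 and 552 reads, or 64.5, 55.2 and 63.2 CPM. The gap between the highest young and the lowest aged library was wider here than the spread of the aged libraries. The means were 37.6 ± 7.55 and 61.0 ± 5.04 CPM (SD, n = 3), and the log2 fold change was 0.70 (SE 0.32), at rank 143 of the 417 higher peaks.

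Kcnmb4, the auxiliary subunit, varied most among the 5 higher peaks. It had 537, 602 and 271 reads in the young libraries, or 36.0, 47.0 and 16.8 CPM, and 596, 333 and 709 reads in the aged ones, or 47.5, 54.1 and 81.2 CPM. Aged library 1 and young library 2 nearly touched, and young library 3 was the lowest by far. The means were 33.3 ± 15.2 and 60.9 ± 17.8 CPM (SD, n = 3), and the log2 fold change was 0.87 (SE 0.39), at rank 46 of 417.

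The log2 ratio of Kcnmb4 to Kcnma1 reads was -0.16, 0.11 and -0.79 in the young libraries and -0.44, -0.03 and 0.36 in the aged ones. The means of -0.28 ± 0.46 and -0.04 ± 0.40 (SD, n = 3) differed by less than either SD. No test was made of this ratio.

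The M-current gene Kcnq3 had 928, 950 and 763 reads in the young libraries and 1132, 575 and 804 in the aged ones. These are 62.2, 74.1 and 47.4 CPM in young and 90.3, 93.4 and 92.0 CPM in aged libraries. The aged libraries were within a few CPM of one another, and the young ones were spread below them, with library 2 on top. The means were 61.3 ± 13.4 and 91.9 ± 1.53 CPM (SD, n = 3), and the log2 fold change was 0.59 (SE 0.33), at rank 268 of 417.

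Kcnj16, the Kir5.1 gene, was the only member with a lower mean in aged mice. It had 240, 112 and 476 reads in the young libraries, or 16.1, 8.74 and 29.6 CPM, and 120, 69 and 74 reads in the aged ones, or 9.57, 11.2 and 8.47 CPM. The ages overlapped, because young library 2 lay inside the aged range, and young library 3 held more than the other young libraries together. The means were 18.1 ± 10.6 and 9.75 ± 1.38 CPM (SD, n = 3), and the log2 fold change was -0.90 (SE 0.41), at rank 11 of the 112 lower peaks. Cldn2, a tight junction gene of choroid plexus, had the same order of young libraries, with library 3 highest and library 2 lowest, as did 63 of the 112 lower peaks. Among the aged libraries the orders were opposite, with library 3 the highest for Cldn2 and the lowest for Kcnj16. The part of choroid plexus RNA in the Kcnj16 difference was not tested. Cldn2 is also among the genes that the authors measured by quantitative PCR in young and aged mice.

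The log2 ratio of Kcnj16 to Kcnma1 reads was -1.32, -2.31 and 0.02 in the young libraries and -2.75, -2.30 and -2.90 in the aged ones. The second young library fell just below aged library 2, so that the ages overlapped at that point alone. The means were -1.20 ± 1.17 and -2.65 ± 0.31 (SD, n = 3).

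**Figure D2:**
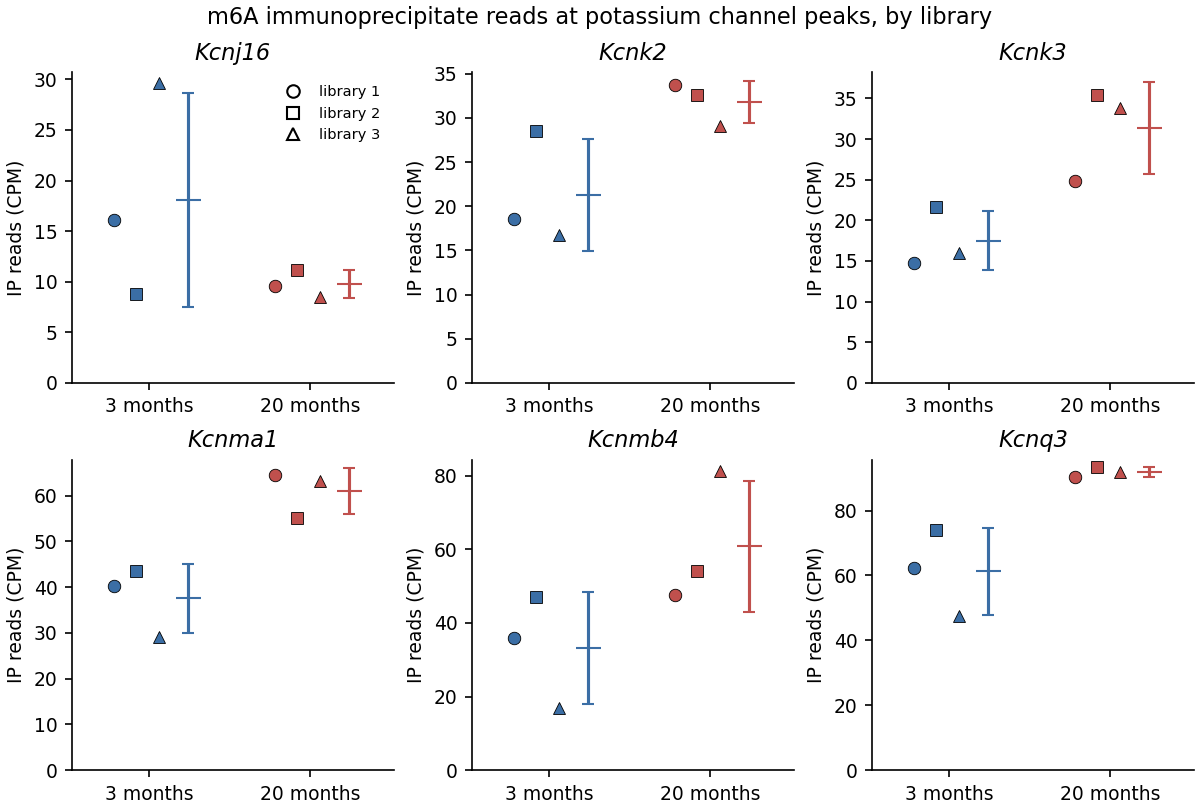
IP reads (vertical axis, CPM) at each potassium channel peak in every library (points; the shape gives the library number), with the mean and SD of 3 libraries beside them. The aged libraries lie above the young ones in 5 panels, while for Kcnj16 young library 2 (8.74 CPM) lies among the aged libraries.

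**Figure D3:**
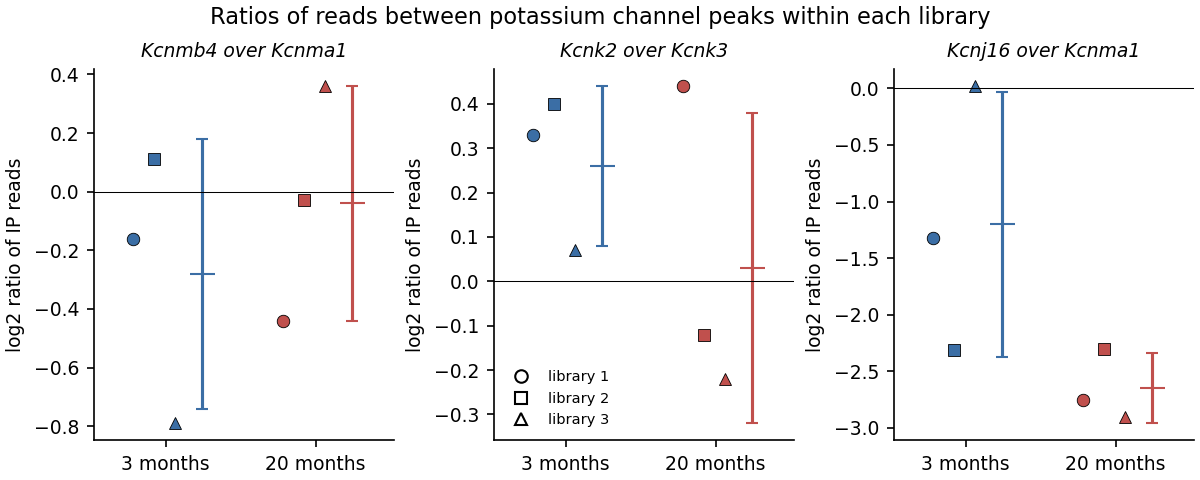
Log2 ratio of IP reads between pairs of potassium channel peaks within each library (points), with the mean and SD of 3 libraries beside them. The young and aged libraries overlap in all 3 panels.

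On the scale of the recovered sizes, young library 2 was the young library nearest to the aged mean at all 6 peaks. The same was so at 476 of the 529 listed peaks (90.0%). With column totals it held at Kcnj16 alone, and not at Kcnk2, Kcnk3, Kcnma1, Kcnmb4 or Kcnq3. The 15 pairwise correlations of log2 CPM over the 6 libraries were 0.80 to 0.97 among the 5 higher peaks and -0.93 to -0.70 between them and Kcnj16. These peaks share the libraries and their scaling. Without young library 2, all 6 members passed (edgeR quasi-likelihood adjusted p from 0.000789 at Kcnmb4 to 0.00739 at Kcnq3), but so did 513 of the 529 peaks (97.0%). Taking away the young library nearest to the aged mean widens the differences by construction. The log2 fold change was then -1.23 at Kcnj16, 1.21 at Kcnmb4, 1.02 at Kcnk3, 0.85 at Kcnk2, 0.81 at Kcnma1 and 0.75 at Kcnq3. Without young library 3, that of Kcnj16 shrank to -0.36 and that of Kcnmb4 to 0.55.

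The direction of 2 members depended on the scaling. The log2 fold changes of Kcnk2 and Kcnq3 were -0.01 and -0.03 with TMM factors and -0.03 and -0.04 with DESeq2 size factors, both computed on the listed peaks. Those of Kcnma1, Kcnk3 and Kcnmb4 fell to 0.07, 0.22 and 0.32 with TMM and stayed above 0 with every scaling that was tried, while Kcnj16 stayed below 0 and went to -1.73 with TMM. TMM and DESeq2 size factors centre a list of mostly higher peaks, and column totals, TMM and DESeq2 size factors moved the median log2 fold change of all peaks by -0.44, -0.55 and -0.57. The place of a member relative to that median moved less. Relative to it, Kcnj16 was at -1.49 with the recovered sizes and at -1.76 with TMM, and Kcnmb4 was at 0.29 with both. Kcnk2 and Kcnq3 were within 0.06 of the median with the recovered sizes, column totals, TMM and DESeq2 factors.

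**Figure D4:**
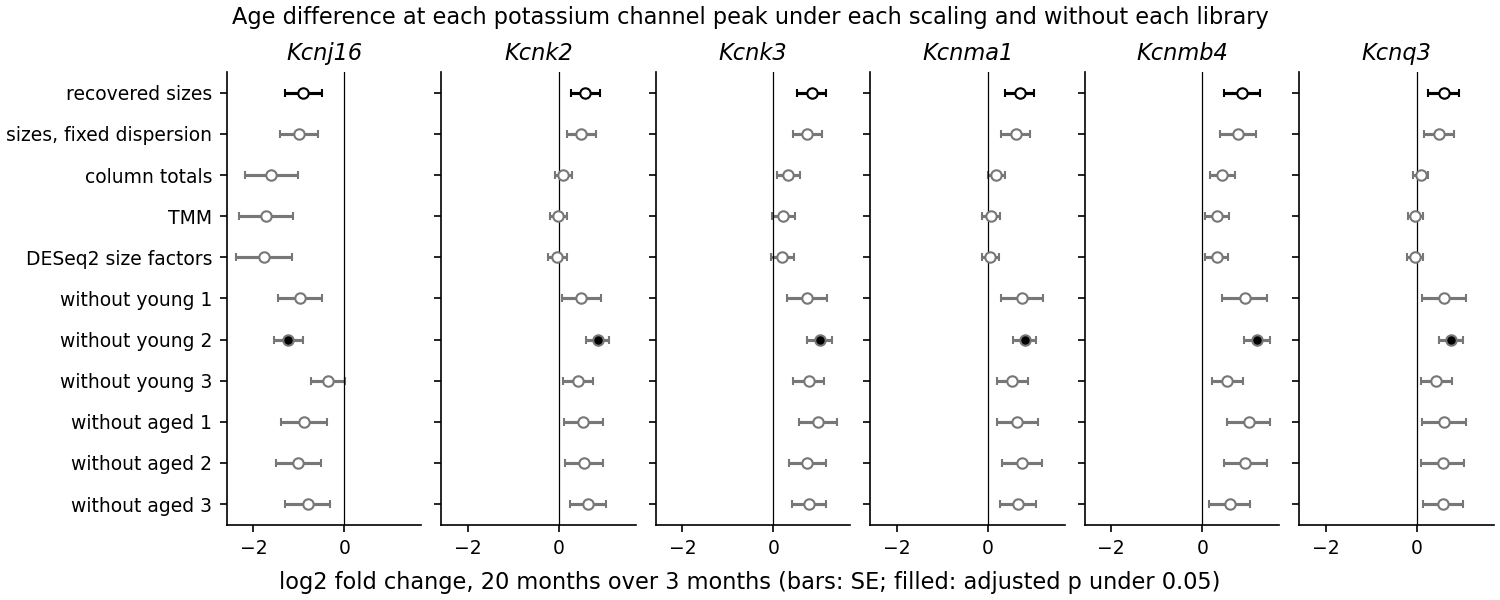
Log2 fold change of each potassium channel peak, aged over young (horizontal axis; bars are SE), with the recovered library sizes, with 4 other scalings and without each library in turn; filled points have an edgeR adjusted p under 0.05. Only the fits without young library 2 are filled, Kcnj16 stays left of 0 in every row, and Kcnk2 and Kcnq3 cross 0 with TMM and DESeq2 size factors.

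Of all 529 listed peaks, 417 were higher and 112 lower in aged libraries with the recovered sizes, and the median was 0.59 on the log2 scale. The 6 members had 5 higher, 1 lower and a median of 0.64. Position and composition went with direction over the whole list. Of the 268 listed peaks in a first exon 260 were higher (97.0%), as were 157 of the 261 others (60.2%). With TMM these were 187 and 123. All 264 listed peaks with a GC content of at least 70% were higher with the recovered sizes (197 of them with TMM), and 24 of the 29 under 40% were lower (26 with TMM). The 5 higher members belong to the GC-rich first-exon peaks and Kcnj16 to the AT-rich ones outside first exons, so the members followed the rest of the list, and the part of composition in their direction was not tested. The limits of 70% and 40% were set after the values were seen.

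**Figure D5:**
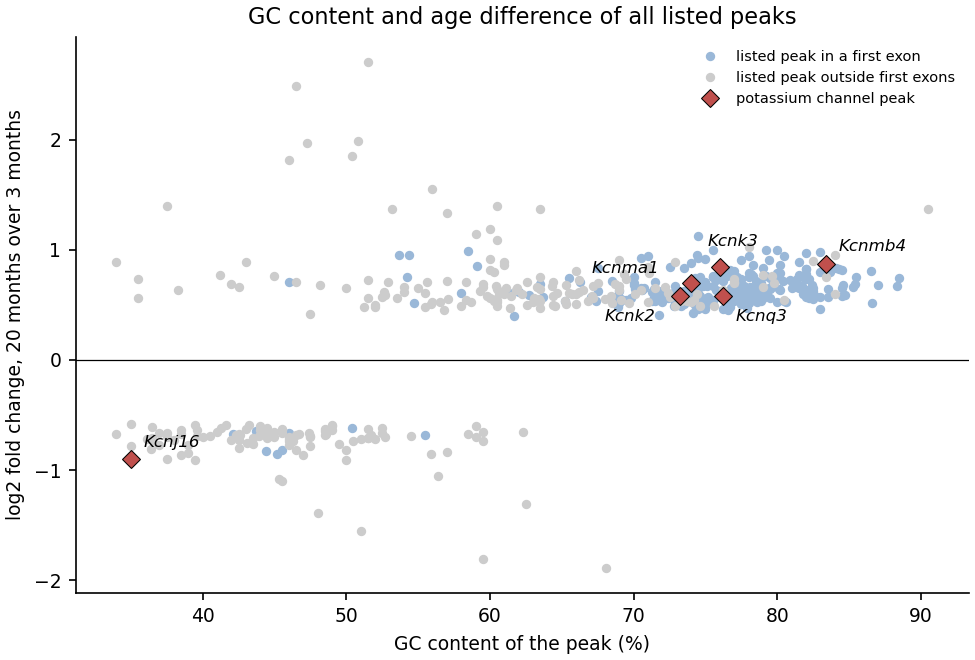
Log2 fold change, aged over young (vertical axis), against the GC content in percent of all 529 listed peaks; diamonds are the potassium channel peaks. Kcnj16 (35.0% GC) lies among the lower peaks on the left, and the other 5 (73.2% to 83.4% GC) lie among the higher peaks on the right.

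The listed peaks of other genes whose log2 CPM followed a member most closely over the 6 libraries were found by Pearson's r, as a description. For Kcnj16 they were Malat1, an abundant nuclear long non-coding RNA (r = 0.965), C230062I16Rik (0.957) and Zfp605, a zinc finger gene (0.947), all in exons. For Kcnk2 they included Shank1, a scaffold of the postsynaptic density (0.996), and Grin2a, an NMDA receptor subunit (0.994). For Kcnk3 they were Xylt1 (0.991), Adcy5, an adenylyl cyclase (0.984), and Bcl7c (0.982), and for Kcnma1 they included Anp32b (0.996) and Erdr1 (0.995). For Kcnmb4 they included Cic (0.991) and Msl2 (0.991), whose peaks are in 5'UTRs like its own. For Kcnq3 they were Rnd2 (0.994), Pip4k2a (0.992) and Cdk14 (0.990). The closest peaks of Kcnj16 correlated less well than those of every other member, and their log2 fold changes were -0.85, -1.31 and -0.91. Kcnj16 had 112 lower peaks to be matched with, against 417 higher ones for the other members. All of them had been selected for an age difference on these libraries, so high correlations within a direction are built in.

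Other genes of membrane excitability were read from lists of names. Among 26 potassium channel partner proteins, 4 had a listed peak. The calcium sensor Calm2 and the axonal anchor Ank3 were at log2 fold changes of -0.81 and -0.66, and the scaffold Dlg1 and the Kv2 partner Amigo1 at 0.52 and 0.60. The young libraries had 12.3, 25.9 and 8.27 CPM at Calm2 and 30.5, 18.7 and 33.6 CPM at Ank3. Young library 2 was thus the highest young library at Calm2 and the lowest at Ank3, and young library 3 lay inside the aged range at Calm2. None passed edgeR's quasi-likelihood test. With TMM all 4 were below 0. Dlg1 and Amigo1 have first-exon peaks of 78.0% and 77.7% GC. Calm2 and Ank3 have peaks outside first exons, that of Calm2 in an intron and that of Ank3 with 52.5% GC.

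Receptors and G proteins that act on potassium channels had 7 listed peaks in 6 of 34 genes, all with a positive log2 fold change (median 0.59; 5 of 7 positive with TMM or DESeq2 size factors) and 0 passing the same test. They were the GABA-B receptor gene Gabbr1 with 2 peaks (0.50 and 0.59), the cannabinoid receptor Cnr1 (0.65), the somatostatin receptor Sstr3 (0.66), the inhibitory G protein genes Gnai2 (0.54) and Gnao1 (0.53), and the phospholipase Plcb3 (0.81). Genes of other ion channels had 7 listed peaks in 7 of 89 genes, again all positive (6 of 7 with TMM or DESeq2 size factors), with a median of 0.76 and 0 passing. They included the calcium channel genes Cacna1a (0.46), Cacna1b (0.83) and Ryr1 (0.61), the chloride channel gene Clcn2 (0.64) and the sodium leak channel partner Unc80 (0.76). The median of all listed peaks was 0.59, and no difference from the potassium channel set was tested.

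Genes that mark the cells of the hippocampus were thinly covered by the list. Of 22 astrocyte genes of potassium, water and glutamate handling, 2 had a listed peak, among them the lipoprotein gene Apoe (0.52). Oligodendrocyte lineage genes had 7 listed peaks in 4 of 16 genes, with the 4 peaks of the progenitor receptor Gpr17 at -1.05 to -0.65 and Mobp, Apod and Hapln2 at 0.71, 0.76 and 1.14. Microglia had C1qc (0.73) and Tmem119 (0.66) of 12 genes, neurons Cnr1 (0.65) and Adarb2 (2.71) of 16, and meninges and vessel wall 0 of 17. With TMM, Apoe and Cnr1 were just below 0 and the other signs stood. Of these genes, Adarb2 alone passed edgeR's test (adjusted p 0.000906). A gene with no listed peak has no value in the table, so its level is not known from it, and the part of cell composition in the members' differences was not tested.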

How the data were processed

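IP and input libraries of 3 young and 3 aged mice were sequenced. Per the submitters' processing notes the build was mm10 and the tools were bedtools 2.25.0, Subread 1.6.4, MACS2 2.2.1, SAMtools 1.3, STAR 2.5.3a, Bowtie2 2.2.7 and Trimmomatic 0.36. The deposited table gives, for 862 rows or 529 unique peaks that the authors selected as differential, read counts per IP library that the authors did not normalise, and an average abundance that the authors gave as log2 CPM. It also holds the authors' fold changes, test scores and p-values, which were not used.

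Library sizes were recovered by least squares from the deposited log2 abundance and the counts (largest residual 4.5e-09 on the log2 scale), because column sums of a selected list are not depths. They carry the authors' own scaling. Aged was compared with young in R 4.3.3 with edgeR 4.0.16, by its two-sided quasi-likelihood test without covariates, with Benjamini-Hochberg adjustment over 529 peaks at 0.05. The SE of each log2 fold change was taken as its absolute value divided by the square root of the F statistic of that test. It was thus worked back from the test and was not a separate output of the fit. The fit was tested on simulated data with larger changes than those of the members and with independent spread at each peak. It was therefore not tested for differences of the members' size. Replicates came from different mice. Alternatives were column totals, TMM, DESeq2 1.42.0 size factors, sizes with a fixed dispersion of 0.05, a likelihood ratio test, DESeq2's Wald test, a mean of at least 100 reads, stricter thresholds, a replicate block, and leaving out each library. With 3 libraries per age the spread between libraries, more than the 69 to 1132 reads per member peak, limits the precision.

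Starts were read as counting from 0, so sequences begin at the base after the printed start. Features came from GRCm38.p6 and GENCODE M21 basic transcripts (Python 3.11.15, pysam 0.24.0), by gene symbol. Named genes were the 6 members, the 3 most similar listed peaks of other genes per member, and the listed genes of 10 lists. Some of these genes are not reported here. The members, lists and tests were chosen with earlier results of these data known.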

Additional observations from a re-analysis of the deposited data

How the results depend on the processing

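No member peak passed the 0.05 threshold in any alternative except the fit without young library 2, so that leaving out 1 library gave 0 to 6 members and 4 to 513 of all listed peaks. All listed peaks called numbered 6 (6 higher, 0 lower, 139 at an unadjusted p under 0.05, edgeR quasi-likelihood), 9 with column totals (6 higher, 3 lower), 93 with TMM (6 and 87), 51 with DESeq2 size factors (6 and 45), and 12 with edgeR's likelihood ratio test and with DESeq2's Wald test (11 and 1 each). Without young library 3 it was 14, without aged library 3 it was 4. The members whose libraries did not overlap between ages numbered 5, but 0 with DESeq2 size factors, TMM or column totals and 3 with the fixed dispersion, and 5 to 6 with 1 library left out. Of all 529 listed peaks, aged libraries were all above young ones at 170 and all below at 79. These counts were 54 and 86 with column totals, 22 and 97 with TMM, and 24 and 94 with DESeq2 size factors. They were 110 and 88 with the fixed dispersion, and 410 and 106 without young library 2, where all 6 members were separated. Log2 fold changes that turned were those of Kcnk2 (-0.01 with TMM, -0.03 with DESeq2 size factors) and Kcnq3 (-0.03 and -0.04). These factors centre the list by construction. With 1 library left out, Kcnj16 ranged from -1.23 to -0.36 and Kcnmb4 from 0.55 to 1.21. Deviations of young and aged libraries with the same number correlated at -0.194, -0.0425 and -0.0272, and those with different numbers at -0.00999 to 0.0927. With so few libraries per age these values cannot show whether the numbers pair them, and the labels do not say. With the replicate number as a block, 7 listed peaks and 0 members passed, at log2 fold changes of -0.74 for Kcnj16 and 0.93 for Kcnmb4. With starts read as counting from 1 the median GC content of the members was 75.1% in place of 75.0%, and with 100 bases added on either side it was 75.8% and all 6 held DRACH. A mean of at least 100 reads kept 508 peaks and all members.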
